A study of Mus musculus with 20 samples.

Results

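Kidney RNA was measured for 7 transcription factors that build the nephron during development, Pax2, Pax8, Sox4, Sox9, Lhx1, Pou3f3 and Irx3, in healthy and diseased adult male mice. The genes were chosen by symbol, as 7 of the 47069 genes in the deposited table of estimated counts, and all 7 were among the 17622 genes with enough reads to be tested. RNA from kidneys of 20 mice was sequenced at 15 weeks of age. The 5 WT mice were untreated littermates, and the other 15 were F1-Col4a3-/- mice (129SJ x C57Bl/6J), which lack an intact gene for a collagen chain of the glomerular basement membrane and serve as a model of Alport syndrome. From 5 weeks of age, 6 of them received weekly subcutaneous PBS (Veh), 6 received lademirsen, an oligonucleotide that blocks miR-21, at 50 mg/kg by the same weekly route (Anti-miR-21), and 3 received the angiotensin-converting enzyme inhibitor ramipril in drinking water together with weekly PBS (ACEi). The ramipril dose is given as 11 mg/L in the sample descriptions and as 4 mg/kg in the deposited library table. Levels are CPM, the counts scaled to a common library size, after TMM scaling between libraries, a difference is called at an adjusted p under 0.05 in edgeR's quasi-likelihood test over all genes tested, and mice are named by their library titles, such as A17.

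In the embryo, Pax2 and Pax8 commit cells to the kidney lineage, Lhx1 patterns the renal vesicle, Sox9 and Sox4 act in progenitors and growing tubules, and Pou3f3 and Irx3 mark the part of the young nephron that becomes the loop of Henle and the distal tubule. Several of these genes stay on in adult tubules, and Sox9 is known as a factor that injured tubule cells switch on during repair.

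Of the 7 factors, Sox9 and Sox4 were higher in Veh than in WT kidneys, Lhx1, Irx3 and Pou3f3 were lower, and Pax2 and Pax8 were not called. These 5 calls among 7 genes stand beside 73% of all genes tested that were called between Veh and WT, and the median size of the log2 fold change was 0.70 for the factors and 0.65 for all genes. Anti-miR-21 differed from Veh in 5 of the 7, with Sox9, Sox4 and Pax2 lower and Lhx1 and Irx3 higher, against 59.2% of all genes. ACEi differed from Veh in 2 of the 7, with Lhx1 higher and Pax2 lower, against 40.1% of all genes. Anti-miR-21 and ACEi were compared with the same Veh mice, and in the direct comparison of these treatments 0 of the 7 factors and 0.584% of all genes were called. At an unadjusted p under 0.05, 3 factors differed in that comparison, Sox9, Irx3 and Lhx1, and DESeq2 called Sox9. Relative to WT, 4 of the 7 were called in Anti-miR-21, against 43.7% of all genes, and 6 of the 7 in ACEi, against 47.7% of all genes.

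**Figure D1:**
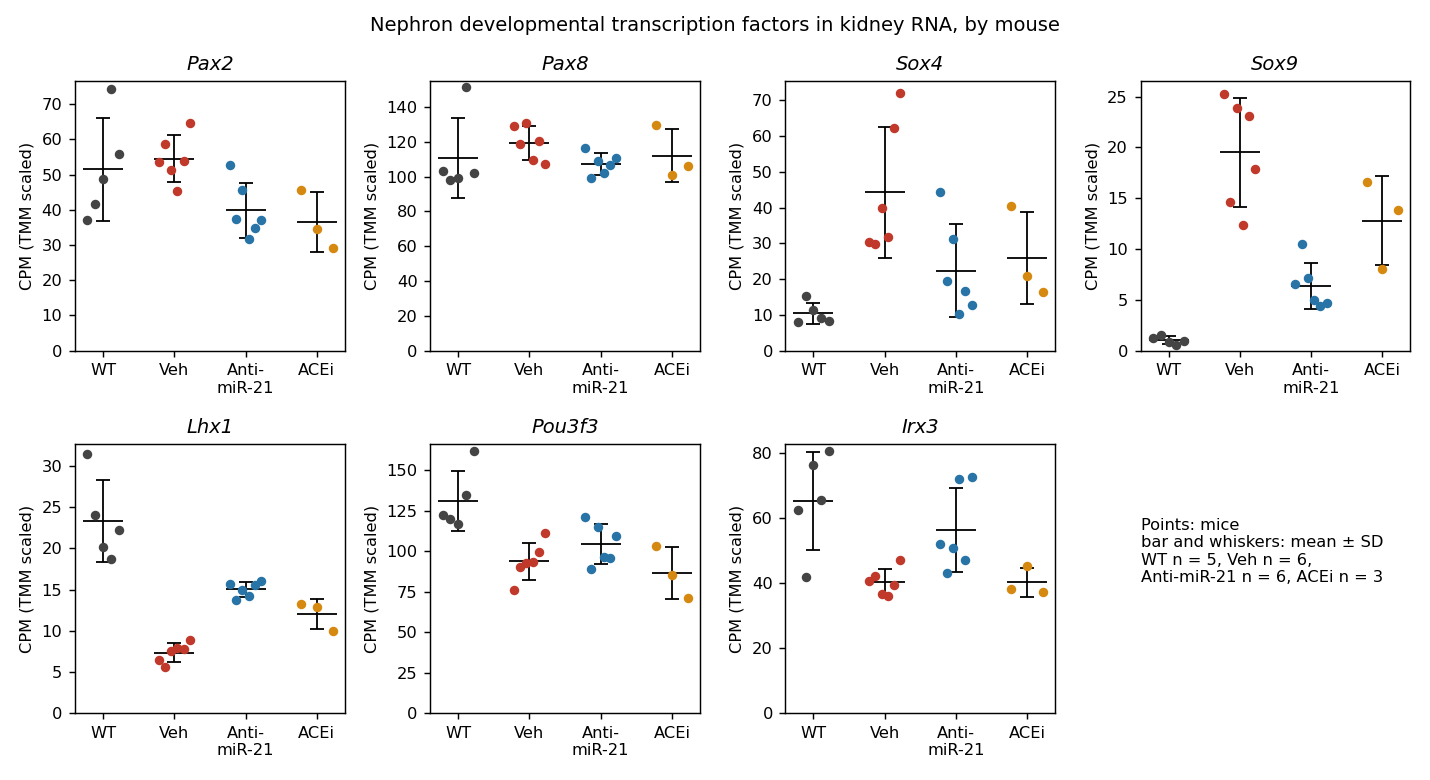
CPM of each factor (vertical axes, from 0) in each mouse of the 4 groups, with the mean and SD. Sox9 lies at 0.531 to 1.56 in WT against 12.3 to 25.3 in Veh, Lhx1 at 18.7 to 31.4 in WT against 5.59 to 8.92 in Veh, and the Pax8 level of WT mouse A17 lies at 152.

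Each library held between 28474301 and 29479629 counts on genes, and the 2 flow cells, A and B, held 13 and 7 libraries. By group, A and B held 3 and 2 WT, 4 and 2 Veh, 5 and 1 Anti-miR-21, and 1 and 2 ACEi libraries. The treated groups thus differ in their share of each flow cell, which the main model does not include as a term. Col4a3 ranged from 194 to 238 CPM in the 5 WT mice and from 27.9 to 74.9 CPM in the 15 Col4a3-/- mice. The summed CPM of 6 tubule injury markers was 908 to 1010 in WT,  11914 to 18368 in Veh, from 4299 to 9983 in Anti-miR-21 and from 7932 to 8671 in ACEi, and that of 5 proximal tubule markers from 12479 to 15987 in WT against 1584 to 4130 in Veh, with no marker at 0 in all mice. Other sums were also apart between WT and Veh, at 134 to 316 against 2598 to 3286 for fibroblast, 116 to 128 against 398 to 484 for macrophage, 74.3 to 112 against 343 to 466 for parietal epithelium and 7.59 to 11.03 against 66.5 to 124 for cycling cell markers, 5 genes each. The 5 adipocyte markers summed to 533, 483 and 407 CPM in Veh mice A1, A4 and A9 and to 336 CPM in Anti-miR-21 mouse A12, against 22.7 to 112 CPM in the other 16 mice. In whole kidney RNA, fewer cells of a type and less RNA per cell cannot be told apart, and the part of these shifts in the levels below was not tested.

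The order of levels between genes was read from the deposited FPKM, which are divided by transcript length. In WT, Pax8 led with 35.3 ± 8.28 FPKM (SD, n = 5), followed by Pou3f3 with 27.5, Irx3 with 22.6 and Pax2 with 12.6 FPKM, and each of these overlapped its neighbour in the order. Lhx1 with 2.96 and Sox4 with 1.95 FPKM overlapped as well, below every Pax2 value, and Sox9 was last with 0.203 ± 0.0789 FPKM. In Veh, Sox4 with 13.2 and Sox9 with 5.91 FPKM both stood above Lhx1, which was last with 1.40 ± 0.461 FPKM (SD, n = 6), and no Lhx1 value overlapped the Sox9 values. In Anti-miR-21 the order of the last places was Lhx1 with 2.21 and Sox9 with 1.53 FPKM, and in ACEi it was Sox9 with 3.20 and Lhx1 with 1.82 FPKM, with overlap in both groups.

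**Figure D2:**
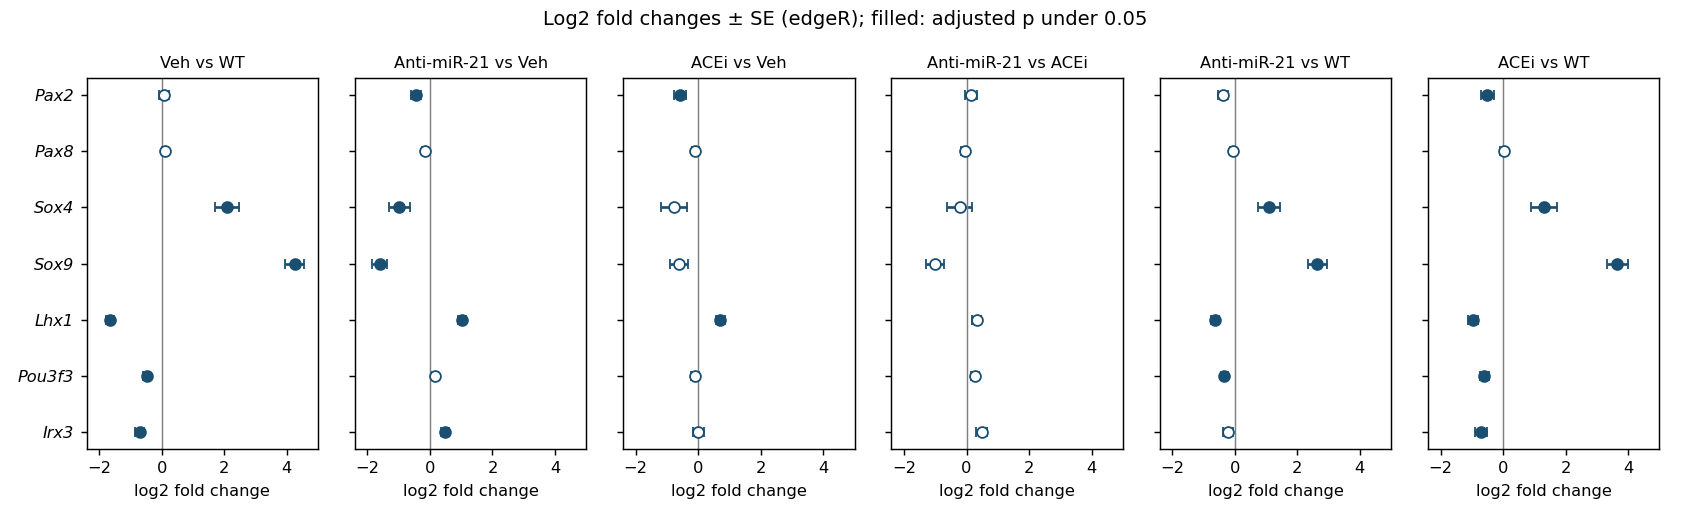
Log2 fold changes (horizontal axes) of the 7 factors in 6 comparisons, with standard errors as whiskers and filled points where the adjusted p was under 0.05. Sox9 has the largest value of the 7 between Veh and WT, 4.25, and no point is filled between Anti-miR-21 and ACEi.

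Sox9 (ENSMUSG00000000567, chromosome 11 from 112782224 to 112787760 on the plus strand of GRCm38), a SoxE factor of tubule progenitors and of repair, was the factor with the largest difference between Veh and WT. It stood at 1.25, 1.56, 0.845, 0.531 and 0.923 CPM in WT mice A3, A6, A14, A17 and A18. In Veh it ranged from 12.3 to 25.3 CPM with a median of 20.5, so every Veh mouse was above every WT mouse. The log2 fold change was 4.25 (SE 0.31, adjusted p = 2.5e-10), which is 19.1-fold. Anti-miR-21 mice ranged from 4.39 to 10.5 CPM with a median of 5.79, below every Veh mouse and above every WT mouse, with a log2 fold change from Veh of -1.61 (SE 0.24, adjusted p = 1.1e-05) and from WT of 2.64 (SE 0.31, adjusted p = 1.2e-06). The ACEi mice A11, A13 and A23 stood at 16.6, 8.02 and 13.8 CPM, and A11 and A23 lay within the Veh range while A13 lay below it. ACEi was 3.65 above WT on the log2 scale (SE 0.34, adjusted p = 4e-08), and its difference from Veh was -0.61 (SE 0.29, adjusted p = 0.1). Between Anti-miR-21 and ACEi the log2 fold change was -1.0 (SE 0.28, adjusted p = 0.11), and only ACEi mouse A13 overlapped the Anti-miR-21 range. That difference passed the threshold with DESeq2 (adjusted p = 0.04) and in edgeR without Anti-miR-21 mouse A8 (log2 fold change -1.20, adjusted p = 0.033). With library totals in place of TMM scaling, the ACEi difference from Veh was -0.88 (adjusted p = 0.03), where the median of all genes moved to -0.32 from -0.05.

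Sox4 (ENSMUSG00000076431, chromosome 13 from 28948919 to 28953713 on the minus strand), a SoxC factor of embryonic progenitors in many organs, rose as well, with wide spread inside the groups. The WT mice A3, A6, A14, A17 and A18 stood at 7.97, 15.2, 11.4, 9.24 and 8.26 CPM. Veh ranged from 29.7 to 72.1 CPM with a median of 35.8, where A19 with 62.1 and A20 with 72.1 stood above the other 4 mice, and no Veh value overlapped WT (log2 fold change 2.09, SE 0.37, adjusted p = 3.9e-05). Anti-miR-21 ranged from 10.1 to 44.2 CPM with a median of 18.1, and ACEi mice A11, A13 and A23 stood at 40.4, 20.9 and 16.3 CPM, and both groups overlapped Veh. The Anti-miR-21 difference from Veh, -0.98 (SE 0.33, adjusted p = 0.015), was not called without Veh mouse A20 (log2 fold change -0.77, adjusted p = 0.054). The ACEi difference from Veh was -0.78 (SE 0.41, adjusted p = 0.14). Above WT, Sox4 was called in Anti-miR-21 (1.10, SE 0.36, adjusted p = 0.019) but not without mouse A2 (0.79, adjusted p = 0.067), nor within flow cell A (0.86, adjusted p = 0.15). It was called in ACEi (1.31, SE 0.42, adjusted p = 0.014) but not without mouse A11 (0.84, adjusted p = 0.15).

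A long intergenic non-coding gene, Gm26735 (chromosome 13 from 28943048 to 28951671), lies on the strand opposite to Sox4, and 2616 exon bases of it lie on exons of Sox4. Whether the reads were counted by strand is not given in the sources used here, so the counts of these 2 genes cannot be told apart over the shared bases. Gm26735 had 4.76 ± 0.777 CPM in WT (SD, n = 5) and 41.4 ± 10.5 CPM in Veh (SD, n = 6), a log2 fold change of 3.12 (SE 0.23, adjusted p = 2.3e-10). Sox4 held from 63.1% to 77.0% of the summed counts of the pair in WT but from 35.3% to 68.9% in Veh and from 34.6% to 80.8% in Anti-miR-21, so the split between the genes varied from mouse to mouse.

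Summed over the pair, the groups were tighter. The sum was 11.7, 19.8, 17.3, 13.98 and 13.1 CPM in WT mice A3, A6, A14, A17 and A18. It ranged from 63.4 to 105 CPM with a median of 84.5 in Veh and from 24.0 to 54.8 CPM with a median of 38.9 in Anti-miR-21, and was 64.0, 45.7 and 48.5 CPM in ACEi mice A11, A13 and A23. The SD within Veh fell from 41.3% of the mean for Sox4 alone to 16.8% for the sum. With the counts added, an alternative chosen after seeing the data, the log2 fold change was 2.50 between Veh and WT (SE 0.20, adjusted p = 9.3e-10) and -1.14 between Anti-miR-21 and Veh (SE 0.18, adjusted p = 1.9e-05), and that of ACEi from Veh was -0.70 (SE 0.22, adjusted p = 0.017), past the threshold that Sox4 alone missed. Every Anti-miR-21 sum lay below every Veh sum, while ACEi mouse A11 with 64.0 CPM lay just above the lowest Veh mouse, A16, with 63.4 CPM.

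**Figure D3:**
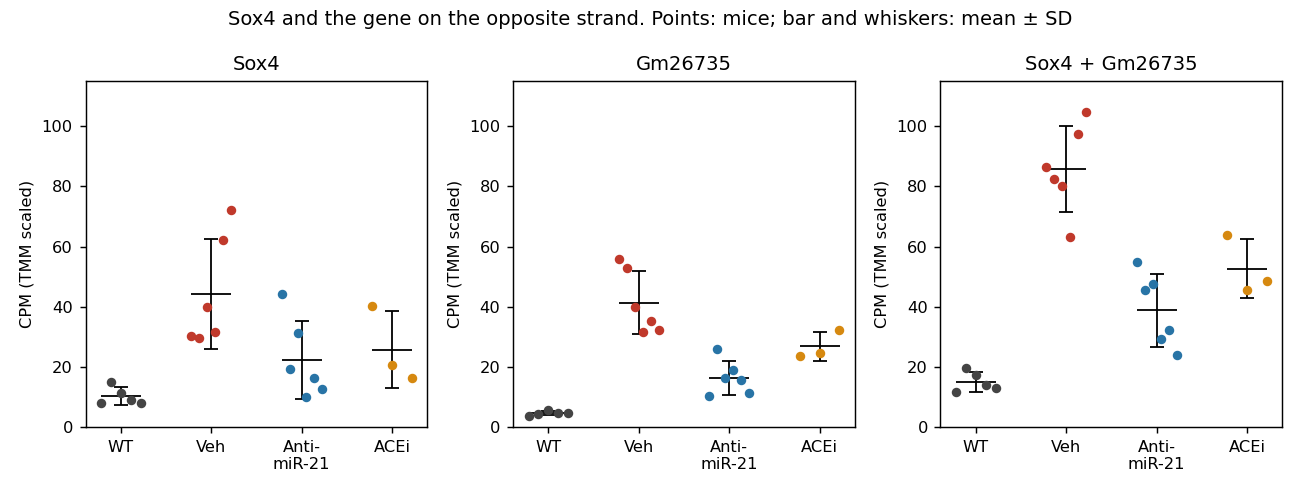
CPM (vertical axes, same scale) of Sox4, of Gm26735 on the opposite strand and of their sum in each mouse, with the mean and SD of each group. The Veh mice spread from 29.7 to 72.1 for Sox4 alone and from 63.4 to 105 for the sum, while WT stays at or below 19.8 in all panels.

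The ratio of Sox9 to Sox4 within a mouse does not depend on the scaling between libraries. The mean log2 ratio of their CPM was -3.40 ± 0.56 in WT (SD, n = 5), -1.14 ± 0.60 in Veh (SD, n = 6), -1.69 ± 0.71 in Anti-miR-21 (SD, n = 6) and -0.97 ± 0.64 in ACEi (SD, n = 3). Sox9 gained on Sox4 by 2.26 on the log2 scale between WT and Veh (two-sided exact permutation test, p = 0.0022, the smallest possible, adjusted p = 0.013 over 6 comparisons), with no overlap. Sox4 was counted alone here, and its mean share of the pair with Gm26735 was 68.0% in WT and 50.6% in Veh. For a given sum of the pair, a lower share gives a higher ratio. The ratio was also higher than in WT in Anti-miR-21, by 1.71 (exact p = 0.0065, adjusted p = 0.019), and in ACEi, by 2.43 (exact p = 0.018, the smallest possible, adjusted p = 0.036). The Anti-miR-21 ratio differed from Veh by -0.55 (exact p = 0.17) and the ACEi ratio by 0.17 (exact p = 0.69), both within the spread between mice. The Anti-miR-21 call over WT was lost without WT mouse A17 (1.53, adjusted p = 0.057), and the ACEi call when any single mouse of either group was left out, where the differences ran from 2.07 to 2.64 and fewer mice raise the smallest p the test can give.

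Lhx1 (ENSMUSG00000018698, chromosome 11 from 84518284 to 84525535 on the minus strand), a LIM homeodomain factor needed to pattern the renal vesicle, fell in disease and was higher under both treatments. It stood at 31.4, 24.0, 20.2, 18.7 and 22.2 CPM in WT mice A3, A6, A14, A17 and A18. Veh ranged from 5.59 to 8.92 CPM with a median of 7.67, Anti-miR-21 from 13.7 to 16.1 CPM with a median of 15.2, and ACEi mice A11, A13 and A23 stood at 13.3, 12.8 and 10.0 CPM. These 4 ranges did not overlap each other, in the order WT, Anti-miR-21, ACEi and Veh. The log2 fold change was -1.66 between Veh and WT (SE 0.13, adjusted p = 3.9e-10), 1.03 between Anti-miR-21 and Veh (SE 0.12, adjusted p = 7.1e-07) and 0.71 between ACEi and Veh (SE 0.15, adjusted p = 0.00077). Both treated groups stayed below WT, by -0.63 for Anti-miR-21 (SE 0.12, adjusted p = 0.00041) and -0.95 for ACEi (SE 0.16, adjusted p = 5.6e-05). Between the treatments the log2 fold change was 0.32 (SE 0.15, adjusted p = 0.33), which did not pass the threshold. On the deposited FPKM, which use another gene model, limma on log2(FPKM + 1) did not call ACEi against Veh (0.23, adjusted p = 0.38) or either treatment against WT (-0.30, adjusted p = 0.19, and -0.49, adjusted p = 0.065).

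The non-coding gene Lhx1os starts 125 bases from Lhx1 and is read in the opposite direction (chromosome 11 from 84525660 to 84535831), and no base of it overlaps Lhx1. Lhx1os stood at 15.9, 13, 15.5, 12.8 and 15.8 CPM in WT mice A3, A6, A14, A17 and A18 and from 3.30 to 5.46 CPM in Veh. It ran from 9.65 to 12.9 CPM in Anti-miR-21 and was 8.76, 7.94 and 7.94 CPM in ACEi mice A11, A13 and A23. The groups lay in the same order as for Lhx1, except that Anti-miR-21 mouse A22 with 12.9 CPM lay just above WT mouse A17. The log2 fold change was -1.77 between Veh and WT (SE 0.12, adjusted p = 1e-10), 1.42 between Anti-miR-21 and Veh (SE 0.12, adjusted p = 3.2e-08) and 0.94 between ACEi and Veh (SE 0.14, adjusted p = 3.9e-05). Aatf, the coding gene 4761 bases beyond the other end of Lhx1, did not pass the test between Veh and WT (16.9 and 17.97 CPM, adjusted p = 0.38).

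Pou3f3 (ENSMUSG00000045515, chromosome 1 from 42695768 to 42703176 on the plus strand), a POU factor of the loop of Henle and distal tubule, was slightly lower in disease. WT mice A3, A6, A14, A17 and A18 stood at 122, 120, 117, 135 and 162 CPM, and Veh ranged from 75.96 to 111 CPM with a median of 92.9, with no overlap (log2 fold change -0.48, SE 0.11, adjusted p = 0.00059). Anti-miR-21 ranged from 88.8 to 121 CPM with a median of 103 and was not called against Veh (0.15, SE 0.11, adjusted p = 0.22). ACEi mice A11, A13 and A23 stood at 104, 85.4 and 71.4 CPM, all below WT, with a log2 fold change from WT of -0.60 (SE 0.14, adjusted p = 0.0014) and from Veh of -0.11 (SE 0.13, adjusted p = 0.52). Anti-miR-21 was also lower than WT, by -0.33 (SE 0.11, adjusted p = 0.022), a call lost without Anti-miR-21 mouse A8 (-0.29, adjusted p = 0.055), without WT mouse A18 (-0.24, adjusted p = 0.085) and without the 4 libraries of high adipocyte markers (-0.28, adjusted p = 0.056). It was also lost within flow cell A (-0.20, adjusted p = 0.16), with library totals (-0.08, adjusted p = 0.61) and on log2(FPKM + 1) (-0.09, adjusted p = 0.66), and the ACEi call over WT was lost with library totals (-0.28, adjusted p = 0.13) and on log2(FPKM + 1) (-0.25, adjusted p = 0.2). The direction between Veh and WT depended on the scaling, as library totals gave 0.10 (adjusted p = 0.46), but those totals also moved the median of all genes from 0.07 to 0.65. Relative to that median, Pou3f3 lay at -0.55 under both scalings. A change of scaling moves all genes by about the same amount, so this agreement was fixed in advance and does not settle the direction.

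Pantr1, a non-coding gene that starts 926 bases from Pou3f3 in the opposite direction (chromosome 1 from 42590782 to 42694842), stood at 6.86, 8.04, 8.15, 9.93 and 12.4 CPM in WT mice A3, A6, A14, A17 and A18. It ran from 4.23 to 5.11 CPM in Veh, below every WT mouse, from 5.66 to 7.12 CPM in Anti-miR-21 and from 5.12 to 5.96 CPM in ACEi. The log2 fold change was -0.98 between Veh and WT (SE 0.12, adjusted p = 4.1e-07), 0.41 between Anti-miR-21 and Veh (SE 0.12, adjusted p = 0.0054) and 0.28 between ACEi and Veh (SE 0.14, adjusted p = 0.13). Pantr2, 3884 bases beyond the end of Pou3f3, went the other way at 3.22 CPM in WT and 4.24 CPM in Veh (log2 fold change 0.40, SE 0.15, adjusted p = 0.023). ENSMUSG00000093436, a low transcript on the strand of Pou3f3 that spans it, fell from 0.844 to 0.257 CPM (log2 fold change -1.70, SE 0.38, adjusted p = 0.00046).

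**Figure D4:**
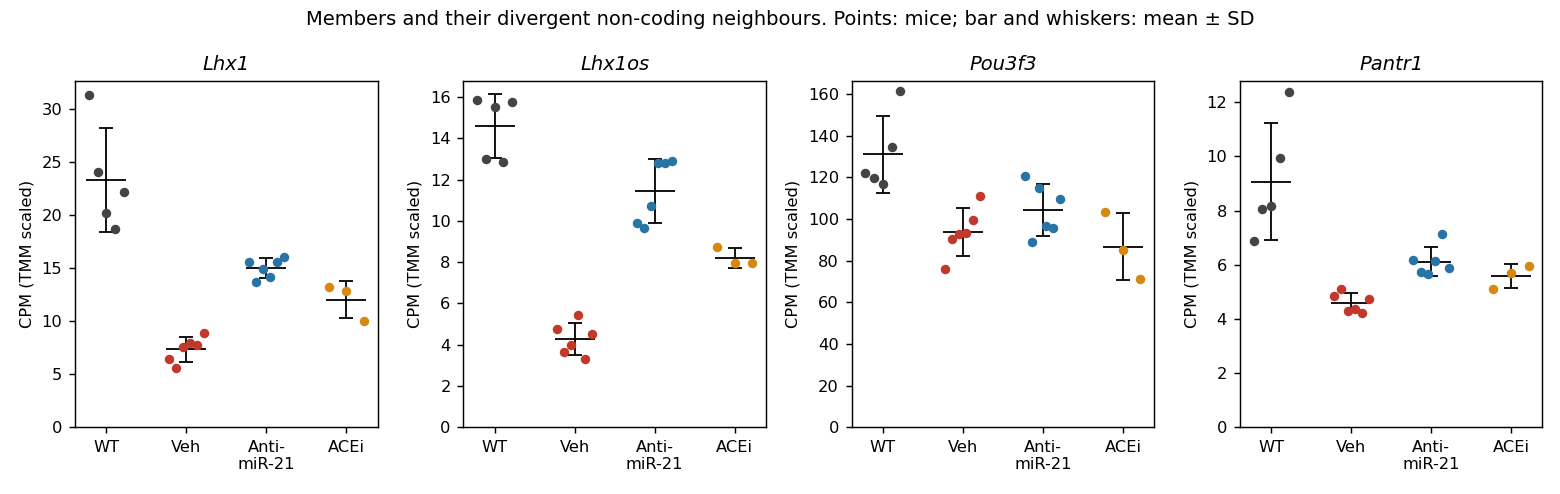
CPM (vertical axes, from 0) of Lhx1 and Lhx1os and of Pou3f3 and Pantr1 in each mouse, with the mean and SD of each group. In each of these genes every Veh mouse lies below every WT mouse, as Lhx1os shows with 3.30 to 5.46 against 12.8 to 15.9.

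The 250 bases before the RefSeq start of Lhx1, Pou3f3 and Sox4 are shown, because the first 2 lie between or beside a pair of genes read in opposite directions and because the counts of Sox4 overlap with those of another gene. They are written from 5′ to 3′ on the strand of the factor, from RefSeq on GRCm38.p6, with capitals at each CCAAT or its complement ATTGG, letters bound by the factor NF-Y in many promoters. The window of Lhx1 is chr11:84525535-84525784 (minus strand) and holds the start of Lhx1os, that of Pou3f3 is chr1:42695518-42695767 (plus strand), and that of Sox4 is chr13:28953700-28953949 (minus strand).
Lhx1: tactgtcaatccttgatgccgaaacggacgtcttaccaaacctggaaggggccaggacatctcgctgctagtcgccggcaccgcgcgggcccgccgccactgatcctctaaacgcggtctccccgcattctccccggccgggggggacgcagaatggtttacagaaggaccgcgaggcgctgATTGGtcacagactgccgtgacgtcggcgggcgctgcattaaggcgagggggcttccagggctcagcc
Pou3f3: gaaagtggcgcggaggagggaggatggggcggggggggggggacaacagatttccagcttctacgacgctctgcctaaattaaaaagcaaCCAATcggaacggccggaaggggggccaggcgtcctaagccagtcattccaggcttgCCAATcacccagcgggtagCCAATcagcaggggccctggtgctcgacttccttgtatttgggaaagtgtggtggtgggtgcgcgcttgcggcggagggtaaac
Sox4: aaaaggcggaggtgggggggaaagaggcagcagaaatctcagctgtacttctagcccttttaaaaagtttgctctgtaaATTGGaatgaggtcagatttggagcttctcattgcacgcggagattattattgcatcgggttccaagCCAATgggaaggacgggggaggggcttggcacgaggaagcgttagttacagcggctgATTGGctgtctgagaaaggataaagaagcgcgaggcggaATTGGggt

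Counting both strands, CCAAT was found 1 time before Lhx1, 3 times before Pou3f3, 4 times before Sox4 and 1 time before Pax8, and not before Irx3 or at any of the 3 starts of Pax2, while 33.8% of 32851 promoter windows of the same length hold it. None of the 8 windows of these factors held TATAAA, which is in 12.4% of all windows. The letters TGACG were found only before Lhx1 of the factors with a window, and are in 17.8% of all windows. These counts describe letters in the windows and do not show that a factor binds there.

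Irx3 (ENSMUSG00000031734, chromosome 8 from 91798525 to 91802067 on the minus strand), an Iroquois factor of the middle segments of the nephron, was lower in Veh. WT mice A3, A6, A14, A17 and A18 stood at 62.6, 41.8, 76.2, 65.4 and 80.6 CPM, and Veh ranged from 35.9 to 47.1 CPM with a median of 40.0. WT mouse A6 lay inside the Veh range and the other 4 WT mice lay above it, and Veh was lower by a log2 fold change of -0.70 (SE 0.15, adjusted p = 0.00033). Anti-miR-21 ranged from 43.0 to 72.6 CPM with a median of 51.4, where A12 with 71.98 and A22 with 72.6 were far above the other 4 mice, and was higher than Veh by 0.48 (SE 0.14, adjusted p = 0.0073). ACEi mice A11, A13 and A23 stood at 38.3, 45.2 and 37.2 CPM, all within the Veh range, with a log2 fold change from Veh of -0.00 (SE 0.18) and from WT of -0.70 (SE 0.19, adjusted p = 0.0044). The direct difference between the treatments was 0.48 (SE 0.18, adjusted p = 0.22), so a difference between their effects on Irx3 was not called. The Anti-miR-21 call over Veh was lost without the 4 libraries of high adipocyte markers, A12 among them (0.40, adjusted p = 0.089), and with library totals (0.12, adjusted p = 0.41). Between Anti-miR-21 and WT the difference was -0.22 (adjusted p = 0.26), and it was called without WT mouse A6 (-0.34, adjusted p = 0.046). With library totals the difference between Veh and WT was -0.11 (adjusted p = 0.49), and relative to the median of all genes it was -0.76 under both scalings. That agreement follows from the scaling itself and adds no support for the fall. The ACEi call over WT was lost with library totals (-0.39, adjusted p = 0.061) and on log2(FPKM + 1) (-0.35, adjusted p = 0.12). Irx3os, which lies on the opposite strand and shares 124 exon bases with Irx3, was at 1.45 CPM in WT and 1.29 CPM in Veh (adjusted p = 0.47).

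Pax2 (ENSMUSG00000004231, chromosome 19 from 44756045 to 44837871 on the plus strand), a paired-box factor that starts kidney development, was not called between Veh and WT but was lower in both treated groups than in Veh. WT mice A3, A6, A14, A17 and A18 stood at 37.0, 41.7, 48.7, 74.2 and 55.7 CPM, and Veh ranged from 45.2 to 64.8 CPM with a median of 53.7. WT thus spanned the whole Veh range, and the log2 fold change was 0.08 (SE 0.16, adjusted p = 0.65). Anti-miR-21 ranged from 31.6 to 52.7 CPM with a median of 37.1, with a log2 fold change from Veh of -0.45 (SE 0.15, adjusted p = 0.017). ACEi mice A11, A13 and A23 stood at 45.8, 34.4 and 29.2 CPM, with a log2 fold change from Veh of -0.58 (SE 0.19, adjusted p = 0.022). Both groups overlapped Veh, Anti-miR-21 by mice A2 and A10 and ACEi by mouse A11.

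Of these Pax2 calls against Veh, that of Anti-miR-21 was kept in 22 of 24 other settings and that of ACEi in 16 of 20. Some of the losses turned on single mice. Without Veh mouse A20, the highest of its group, the adjusted p was 0.055 in both comparisons (log2 fold changes -0.38 and -0.50), and the ACEi call was also lost without ACEi mouse A13 (-0.54, adjusted p = 0.094) or A23 (-0.44, adjusted p = 0.14). Without the 4 libraries of high adipocyte markers, neither was called (-0.37, adjusted p = 0.15, and -0.56, adjusted p = 0.09). Against WT, Anti-miR-21 was not called (-0.37, SE 0.16, adjusted p = 0.072) but passed the threshold without Anti-miR-21 mouse A2 (-0.47, adjusted p = 0.028), without WT mouse A3 (-0.46, adjusted p = 0.031) or A6 (-0.44, adjusted p = 0.045), and in DESeq2 (-0.39, adjusted p = 0.047). ACEi was called against WT (-0.50, SE 0.20, adjusted p = 0.045), but not without ACEi mouse A13 (-0.45, adjusted p = 0.14) or A23 (-0.35, adjusted p = 0.23), nor without WT mouse A14 (-0.52, adjusted p = 0.054), A17 (-0.33, adjusted p = 0.14) or A18 (-0.47, adjusted p = 0.078). It was also lost with upper-quartile scaling (-0.47, adjusted p = 0.068), library totals (-0.19, adjusted p = 0.51) and log2(FPKM + 1) (-0.10, adjusted p = 0.79), and in 13 of 19 other settings in all.

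Pax8 (ENSMUSG00000026976, chromosome 2 from 24420560 to 24475599 on the minus strand), the paired-box relative of Pax2 that is kept on in adult tubules, was called in 0 of the 6 comparisons. At an unadjusted p under 0.05 it also passed in 0 of them. WT mice A3, A6, A14, A17 and A18 stood at 103, 98.1, 99.0, 152 and 102 CPM, and A17 stood far above the other 4. Veh ranged from 107 to 131 CPM with a median of 120, Anti-miR-21 from 99.3 to 117 CPM with a median of 108, and ACEi mice A11, A13 and A23 stood at 130, 101 and 106 CPM. All Veh mice were above the 4 WT mice other than A17. The log2 fold change between Veh and WT was 0.11 (SE 0.10, adjusted p = 0.35), and without A17 it was 0.25 (adjusted p = 0.0065). Within flow cell A, to which A17 does not belong, Pax8 had 125 CPM in 4 Veh mice and 100.1 CPM in 3 WT mice without overlap, a log2 fold change of 0.33 (adjusted p = 0.0013), and Pax2 had 54.3 and 42.5 CPM (0.37, adjusted p = 0.041). Within flow cell B, the 2 Veh mice stood at 107 and 110 CPM, between WT mice A18 with 102 and A17 with 152 CPM, so the direction there turned on A17. Against Veh, Pax8 was lower in Anti-miR-21 within flow cell A (-0.21, adjusted p = 0.013) and with upper-quartile scaling (-0.23, adjusted p = 0.049), where the reported difference was -0.15 (adjusted p = 0.18). With library totals it was lower than Veh in Anti-miR-21 (-0.49, adjusted p = 0.00081) and in ACEi (-0.36, adjusted p = 0.04). The medians of all genes under that scaling were -0.38 and -0.32. On log2(FPKM + 1) the differences were -0.49 (adjusted p = 0.0012) and -0.37 (adjusted p = 0.041). Library totals also gave higher Pax8 in Veh than in WT by 0.69 (adjusted p = 3.1e-05) and higher Pax2 by 0.66 (adjusted p = 0.0034), values next to the median of all genes under that scaling, 0.65. Psd4, the gene 5605 bases beyond the end of Pax8, rose from 2.04 CPM in WT to 15.5 CPM in Veh (log2 fold change 2.92, SE 0.20, adjusted p = 9.1e-11).

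The log2 ratio of Pax2 to Pax8 within a mouse was -1.13 ± 0.24 in WT (SD, n = 5) and -1.14 ± 0.23 in Veh (SD, n = 6), a difference of -0.01 (two-sided exact permutation test, p = 0.96). It was -1.45 ± 0.22 in Anti-miR-21 (SD, n = 6) and -1.64 ± 0.20 in ACEi (SD, n = 3). The ratio was lower than in Veh by 0.31 in Anti-miR-21 (difference -0.31, exact p = 0.037) and by 0.50 in ACEi (difference -0.50, exact p = 0.012, the smallest possible), and neither held after adjustment over the 6 comparisons (adjusted p = 0.071 for both). All 3 ACEi ratios lay below all Veh and all WT ratios. The Anti-miR-21 difference from Veh passed the adjusted threshold without Anti-miR-21 mouse A2 (-0.38, adjusted exact p = 0.045).

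**Figure D5:**
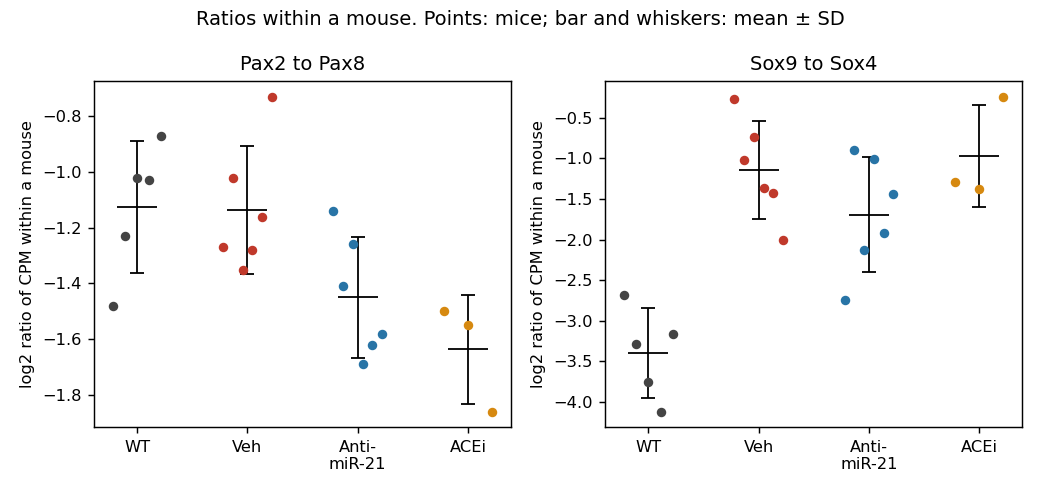
Log2 ratio of CPM within a mouse (vertical axes) for Pax2 to Pax8 and Sox9 to Sox4 in each mouse, with the mean and SD of each group. Sox4 is counted without Gm26735. For Pax2 to Pax8 the ACEi mice, from -1.86 to -1.5, lie below all WT and Veh mice and overlap Anti-miR-21, and the WT mice lie lowest for Sox9 to Sox4, from -4.12 to -2.68, where 1 Anti-miR-21 mouse reaches -2.75.

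As Anti-miR-21 is directed at a microRNA, the 3′ UTRs of the factors were searched for matches to its target. The mature mouse sequence from RefSeq (GRCm38.p6, chr11:86584120-86584141, minus strand) is shown with its seed, bases 2 to 8, in capitals.
mmu-miR-21a-5p: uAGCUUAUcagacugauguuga
A match was ATAAGCT, or its last 6 letters followed by A, in the longest annotated 3′ UTR of a gene (GENCODE M21). None of the 7 factors held one, in 3′ UTRs from 397 bases for Irx3 to 4537 bases for Pou3f3, while 11.1% of 21010 protein-coding genes did. This says only that these letters are not in those windows.

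Inside the groups, after the mean of each group was subtracted, the factors did not vary as 1 block. Over the 20 mice, the highest Pearson r of log2 CPM among the 21 pairs were those of Pax2 with Pou3f3 (0.65), with Pax8 (0.64) and with Sox4 (0.56) and of Sox4 with Pou3f3 (0.53), and the lowest was that of Sox9 with Irx3 (-0.52). The 2 Sox factors had an r of 0.39. The mice share library scaling and depth in these values, which are given as a description.

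Among 15327 protein-coding genes, those most like a factor inside the groups were Slco4a1 (r 0.89) and Irf2bpl (0.88) for Pax2, Dusp7 (0.84) and Ddit4 (0.83) for Pax8, and Kdm2a (0.91) and Nfe2l1 (0.90) for Sox4. For Lhx1 they were Tet2 (0.90) and Urgcp (0.89), for Pou3f3 Bcl7a (0.86) and Irx2 (0.85), and for Irx3 Tmem259 (0.86) and Upp2 (0.84). Of these, Irx2 is a relative of Irx3 that is expressed in the same part of the young nephron. Likeness inside the groups did not go with like differences between them, as Kdm2a had 60.2 CPM in WT and 70.3 CPM in Veh where Sox4 had 10.4 and 44.3 CPM.

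Other regulators of nephron development were read from 4 lists. Of 15 regulators of nephron progenitors, 12 were tested, with 9 higher and 1 lower in Veh, at a median log2 fold change over WT of 1.04 against 0.07 for all genes. Among the highest were Sox11, the close relative of Sox4, from 0.234 to 5.45 CPM (log2 fold change 4.51, SE 0.46, adjusted p = 2.2e-08), and Sox8, the relative of Sox9, from 0.607 to 4.71 CPM (2.95, SE 0.24, adjusted p = 7e-10). Osr1, an early factor of nephrogenic mesenchyme, was the only 1 that fell (-1.01, SE 0.29, adjusted p = 0.0045). Six2, Eya1 and Cited1, the defining genes of embryonic progenitors, did not have enough reads to be tested. Relative to Veh, 7 of the 12 were lower in Anti-miR-21 and 5 in ACEi, and 0 were higher in either. Over all genes, in either direction, 73% were called in Veh against WT, and against Veh 59.2% in Anti-miR-21 and 40.1% in ACEi, so the shares of the 12 called against Veh were near those of all genes. Sox11 was lower in Anti-miR-21 by -2.09 (SE 0.35, adjusted p = 3.4e-05) and in ACEi by -1.46 (SE 0.43, adjusted p = 0.011).

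Of 28 regulators of nephron segments, 27 were tested, with 12 higher and 11 lower in Veh, at a median log2 fold change over WT of -0.00. Among the lowest were Esrrb, a nuclear receptor of the thick ascending limb (38.3 to 10.4 CPM, log2 fold change -1.89, SE 0.26, adjusted p = 1.8e-06), and the proximal tubule factor Hnf4a (826 to 245 CPM, -1.75, SE 0.13, adjusted p = 3.3e-10). The highest were the Notch effector Heyl (2.20, SE 0.11, adjusted p = 2.3e-12), Foxc2 of podocytes (1.61, SE 0.15, adjusted p = 4.9e-09) and Tfap2a, an AP-2 factor of the distal nephron (1.60, SE 0.11, adjusted p = 1.2e-10). Relative to Veh, 7 were higher and 11 lower in Anti-miR-21, and 4 were higher and 9 lower in ACEi, beside the 73%, 59.2% and 40.1% of all genes called in these 3 comparisons. Heyl was the single gene of the 4 lists called between the treatments, at 24.0 CPM in Anti-miR-21, 34.4 CPM in ACEi and 35.2 CPM in Veh (log2 fold change -0.52 between the treatments, SE 0.11, adjusted p = 0.043).

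Of 23 inductive signals and their receptors, 21 were tested, with 16 higher and 3 lower in Veh, at a median over WT of 1.13. Wnt4, the signal that turns mesenchyme into epithelium, rose from 6.32 ± 8.53 CPM in WT (SD, n = 5) to 47.3 ± 18.96 CPM in Veh (SD, n = 6; log2 fold change 2.90, SE 0.58, adjusted p = 0.00014) and was at 6.50 CPM in Anti-miR-21 (-2.86 from Veh, SE 0.53, adjusted p = 0.00012) and 6.74 CPM in ACEi (-2.81, SE 0.70, adjusted p = 0.0036). Ncam1, an adhesion molecule of renal mesenchyme, rose by 3.51 (SE 0.23, adjusted p = 6.1e-11) and the renal vesicle cadherin Cdh6 by 2.90 (SE 0.26, adjusted p = 3.7e-09). Those that fell were Gfra1, the co-receptor of GDNF (-2.06, SE 0.18, adjusted p = 2.4e-09), Bmp7 (-1.31, SE 0.10, adjusted p = 3.8e-10) and Fgf9 (-0.83, SE 0.15, adjusted p = 4.2e-05), the latter a pair of progenitor ligands. Relative to Veh, 13 were lower and 3 higher in Anti-miR-21, and 10 lower and 2 higher in ACEi, beside shares of all genes called of 73% for Veh against WT, 59.2% for Anti-miR-21 and 40.1% for ACEi.

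The last list held 6 genes of the thick ascending limb that need Pou3f3 in the developing kidney, among them Umod, Slc12a1, Kcnj1, Bsnd and Ptger3. Each of the 6 was lower in Veh, at a median log2 fold change over WT of -1.12, beside the -0.48 of Pou3f3 itself. Ptger3, the prostaglandin receptor EP3, had the lowest value (43.5 to 19.1 CPM, -1.19, SE 0.20, adjusted p = 2.3e-05), next to Bsnd, the chloride channel subunit barttin (-1.18, SE 0.14, adjusted p = 1.9e-07), and Kcnj1, the potassium channel ROMK (-1.13, SE 0.13, adjusted p = 2.1e-07). All 6 were higher in Anti-miR-21 than in Veh, with a median of 0.63, whereas Pou3f3 was not called there. In ACEi 2 of the 6 were higher than in Veh, Kcnj1 among them (0.52, SE 0.15, adjusted p = 0.011), and Ptger3 was at 20.1 CPM (0.08, adjusted p = 0.82). These counts stand beside 73% of all genes called, in either direction, for Veh against WT. Relative to Veh, the shares of all genes called were 59.2% for Anti-miR-21 and 40.1% for ACEi. Of 5 other markers, Cldn16 of the thick limb went the other way, from 10.3 CPM in WT to 15.6 CPM in Veh (log2 fold change 0.59, SE 0.11, adjusted p = 6.4e-05), and the other 4 were lower. The summed CPM of these 5 markers of the thick ascending limb and distal tubule was 1858 to 2635 in WT, 281 to 510 in Veh, 1014 to 1498 in Anti-miR-21 and 733 to 920 in ACEi, and their part in these differences was not tested.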

How the data were processed

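Kidney RNA of 20 mice was sequenced by the authors as paired ends, aligned to GRCm38 with the OmicSoft aligner and quantified in OmicSoft Studio. The authors deposited estimated counts (expected counts) for 47069 Ensembl genes without normalization between libraries, and 29.1% of the positive values are not whole. They also deposited FPKM for 33368 entries of another gene model, scaled by library totals, of which 3 columns match no sample here and were not used, and a count of alignments per library. Counts were rounded, scaled by TMM, filtered with filterByExpr and tested with edgeR 4.0.16 (R 4.3.3) over 4 groups with Benjamini-Hochberg adjustment over 17622 genes. A prior count of 2 went into log2 CPM. Ratios were compared by exact permutation tests, adjusted over 6 comparisons. Alternatives used DESeq2 1.42.0 and limma 3.58.1. The steps were tested on simulated data. Plots used Python with matplotlib. The labels name separate mice, and the replicate names pair none of them. Genes within 10 kb of a factor were named, with Col4a3, the 3 highest and 3 lowest called genes of each list between Veh and WT and any gene called between the treatments, and the 2 most like protein-coding genes per factor, and some genes of this rule are not reported here. The factors and lists were chosen with earlier results of these data known. The sample descriptions name adipose tissue in the extraction text and kidney as the tissue. Overlapping or nearby genes with almost no counts were Gm20395, Mir6405 and 1700039E22Rik at Pax2, Gm13415 and Gm27193 at Pax8, and BC006965 and Gm11681 at Sox9. Gm36380 near Irx3 was not analysed here. The RefSeq promoter of Sox9 was not used here.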

Additional observations from a re-analysis of the deposited data

Results flagged for a closer look

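In WT, the Pax8 level of mouse A17 was 152 CPM and that of the other 4 mice lay between 98.1 and 103 CPM, so 0.904 of the range of the group lay between A17 and the next mouse, above the critical value of 0.71 in Dixon's test. It was the single such group of 30 checked, and chance gives about 1 in 20. The library of A17 was run on flow cell B, and its Pax2 level was also the highest in WT, at 74.2 CPM.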

How the results depend on the processing

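Of 903 values of single factors under other settings, 713 under the planned settings and 76 under those added later kept their direction and their side of the threshold, 44 and 5 lost their call, 30 and 1 gained one, and 32 and 2 changed sign, the latter all values that had not been called or Pou3f3 between Veh and WT. The cause of a change was not tested in any setting. No paired analysis was possible because the replicate names are mouse names that no 2 groups share. The number of factors called between Veh and WT was 5, and 7 within flow cell A and 6 without WT mouse A17. With library totals or on FPKM it was also 5, with Pax2 and Pax8 in place of Pou3f3 and Irx3. Library totals called 14307 of 17622 genes there, where the main setting called 12867. Against Veh in Anti-miR-21 the number, 5, was 3 without the 4 libraries of high adipocyte markers, a setting chosen after seeing the data. It was 6 within flow cell A or with upper-quartile scaling, and ran from 3 to 5 when single mice were left out. Upper-quartile scaling called 10660 genes there, where the main setting called 10440. In ACEi against Veh it was 2, and became 5 with library totals, 4 on FPKM with a pseudocount of 0.1 or 1 and 1 without those 4 libraries, and ran from 1 to 2 without single mice. Calls over all genes moved as well, from 7074 to 9296 of 17622 with library totals. Of these calls, 52.4% were higher in ACEi in the main setting and 20.5% with library totals. On FPKM with a pseudocount of 0.1 and 1, 9173 and 9642 of 21460 entries were called. Between the treatments it was 0, and 1 with DESeq2, and ran from 0 to 1 without single mice. DESeq2 called 441 of all genes there, where the main setting called 103. Against WT it was 4 in Anti-miR-21 and 2 within flow cell A or on FPKM, and 6 in ACEi, 3 with library totals and 2 on FPKM. Over all genes, ACEi against WT had 8405 calls of 17622 in the main setting and 9351 with library totals. On FPKM with a pseudocount of 0.1 and 1, it had 8853 and 8649 calls of 21460 entries. Anti-miR-21 against WT had 7699 calls of 17622 genes in the main setting, and 8089 and 7802 of 21460 entries on FPKM.

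Pou3f3 changed sign with library totals, FPKM + 0.1 and FPKM + 1, to 0.10, 0.13 and 0.12 between Veh and WT and to -0.18, -0.22 and -0.21 between Anti-miR-21 and Veh. Without single mice it ran from -0.25 to 0.02 between ACEi and Veh. Pax8 became 0.02 between ACEi and Veh without the 4 libraries, -0.01 between ACEi and WT with DESeq2, and 0.12 between Anti-miR-21 and WT within flow cell A, 0.19 with library totals, and 0.22 and 0.21 on FPKM. Without single mice Pax8 ran from -0.13 to 0.06 between the treatments, from -0.09 to 0.09 between Anti-miR-21 and WT and from -0.09 to 0.16 between ACEi and WT. Irx3 became 0.02 between ACEi and Veh with no filter on low counts and 0.01 without the 4 libraries, ran from -0.09 to 0.07 without single mice, and was 0.02 between Anti-miR-21 and WT with library totals and 0.04 on FPKM with either pseudocount. Without single mice Pax2 ran from -0.01 to 0.25 between Veh and WT and from -0.01 to 0.33 between the treatments, and Sox4 from -0.52 to 0.28 between the treatments.

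The log2 ratio of Pax2 to Pax8 differed between Veh and WT by 0.00 on FPKM, 0.05 within flow cell A, 0.07 without the 4 libraries and -0.10 to 0.06 without single mice, and between Anti-miR-21 and Veh by -0.38 to -0.23 without single mice. The ratio of Sox9 to Sox4 lost its calls over WT within flow cell A, at 2.37 in Veh and 1.64 in Anti-miR-21 (adjusted exact p = 0.08 for both). Fewer mice there raise the smallest p the test can give, and every Veh ratio on that flow cell still lay above every WT ratio. Without single mice it ran from -0.19 to 0.38 between ACEi and Veh, from 1.53 to 1.92 between Anti-miR-21 and WT and from 2.07 to 2.64 between ACEi and WT. At this depth Sox9 in WT rests on few counts, about 1 CPM.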
